A study of Mus musculus with 2 samples.

Results

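Gata3, Rora, Bcl11b, Id2, Tcf7, Zbtb16, Gfi1, Ets1, Maf and Ikzf3 encode transcription factors of the lineage that gives type 2 innate lymphoid cells (ILC2s), and they were followed here across fetal lung cells. They were chosen by symbol, as 10 of the 32285 genes counted, and each symbol matched 1 gene row. Cells came from wild-type mouse fetuses at gestation day 18, whose mothers, aged 9 weeks, drank water with dexamethasone (DEX, a synthetic glucocorticoid) at 1.3 µg/ml or, as controls, with phosphate-buffered saline (PBS), starting on gestation day 12. The lungs of a litter formed 1 pool of 8 (DEX-1), 9 (DEX-2), 5 (PBS-1) or 8 (PBS-2) fetuses, and live CD45+ lineage- ST2+ cells were sorted, where ST2 is the IL-33 receptor encoded by Il1rl1. The litters were tagged with separate hashtag antibodies and run together as 10x Genomics 5′ single-cell RNA libraries, in which each captured molecule is counted by a unique molecular identifier (UMI). A group is 2 litters, so p-values measure the spread between pooled litters, not between fetuses. The number of mothers per group is lower in a legend of the study than in its methods and the hashtags, which were followed. Where values of litters are paired below, the litter numbered 1 comes first.

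ILC2s are lymphocytes without antigen receptors that sit in tissues and release type 2 cytokines. They descend from innate lymphoid progenitors in which Id2, Tcf7, Zbtb16 and Gata3 are switched on in a known order, and Rora, Bcl11b and Gfi1 are needed for the ILC2 branch. Glucocorticoids such as DEX act through the glucocorticoid receptor, itself a transcription factor that binds DNA. The study used Gata3-positive cells as its ILC2s, and Ets1, Gata3 and Bcl11b stand on gene lists that it assembled for DEX exposure or proliferation, so their values are not independent evidence for those lists.

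The genes lie on 6 chromosomes of the mouse build GRCm38 (GENCODE M21), and all 10 are protein-coding. Gata3, the master regulator of type 2 lymphocytes, is at chr2:9857078-9890034 on the minus strand. Rora, a retinoid-related orphan receptor, is at chr9:68653786-69388246 on the plus strand. Bcl11b, a zinc-finger factor that T cells and ILC2s share, is at chr12:107910403-108003602 on the minus strand. Id2, an inhibitor of E proteins that all innate lymphoid cells use, is at chr12:25093799-25097140 on the minus strand. These genes make up the core of the ILC2 programme.

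Tcf7, which encodes the Wnt-pathway factor TCF1 of early progenitors, is at chr11:52252371-52283014 on the minus strand. Zbtb16, which encodes PLZF and marks ILC precursors, is at chr9:48654297-48836222 on the minus strand. Gfi1, a zinc-finger repressor, is at chr5:107716657-107726036 on the minus strand. Ets1, an ETS family factor of lymphocytes, is at chr9:32636221-32757820 on the plus strand, and Maf, a leucine-zipper factor of cytokine genes, is at chr8:115682942-115707794 on the minus strand. Ikzf3, which encodes the Ikaros family factor Aiolos, is at chr11:98464902-98546031 on the minus strand. Gata3 shares exon bases with 9230102O04Rik on its own strand, so the split of reads between those genes is uncertain, and Gata3, Rora, Gfi1 and Maf each overlap exons of a gene on the opposite strand.

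RefSeq promoter sequences of GRCm38.p6 were matched for 6 of the 10 genes (Gata3, Rora, Bcl11b, Id2, Tcf7 and Gfi1, with a second start for Tcf7 and Gfi1), and Zbtb16, Ets1, Maf and Ikzf3 had no entry. The 250 bases before each start were searched on both strands for motifs of factors that are among the genes or that DEX acts on. The windows of Gata3, Bcl11b, Id2, the second Tcf7 start and the first Gfi1 start overlap exons of GENCODE. They thus include transcribed sequence. The GATA motif AGATAA was found in 9.99% of all 32851 promoters, the glucocorticoid receptor motif AGAACA in 16.1%, its full palindromic site, which contains AGAACA, in 0.00913%, the ROR motif AGGTCA in 14.02% and the TCF and LEF motif CTTTGA in 13.8%. Only 2 matches occurred in the 8 windows, 1 in Bcl11b and 1 at the second start of Tcf7. Each of these motifs was thus in 1 of 8 windows, a share near that over all promoters, so neither match sets the genes apart. The stretches around both matches are shown as the only windows of the group that hold such letters, with the match in capitals. The Rora window is shown whole, as a promoter of the group without a match, which says only that these letters are not in it.
Bcl11b, chr12:108003486-108003515, minus strand, CTTTGA at -89 to -84 from the start: agaggccaagcaCTTTGAagaagtgtgaga
Tcf7, chr11:52282596-52282625, minus strand, the ROR motif read on the opposite strand, at -13 to -8 from the start: agtcacttccggtgcccTGACCTttatagg
Rora, chr9:68653536-68653785, plus strand: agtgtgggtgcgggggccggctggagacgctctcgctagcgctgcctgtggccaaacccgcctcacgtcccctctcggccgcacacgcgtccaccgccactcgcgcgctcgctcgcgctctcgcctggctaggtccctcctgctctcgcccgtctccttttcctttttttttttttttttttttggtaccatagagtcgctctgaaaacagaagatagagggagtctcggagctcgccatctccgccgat

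Of 10409 barcodes that passed the filters on genes and mitochondrial UMIs, 7268 carried 1 hashtag and were used, between 1737 and 1890 per litter with 18665955 to 23660294 UMIs. ILC2-like cells numbered 2048, between 447 and 570 per litter, with median UMIs per cell of 6637 to 7873. Basophil or mast-like cells, the larger class in the sort, numbered 2795. The class names were rebuilt here from marker genes that exclude the 10 factors, and the study may have drawn its classes differently. Il7r, an ILC2 marker, stood at 666 ± 26.0 CPM (UMIs of a gene scaled to the UMI total of the cells summed, SD, n = 4 litters) in ILC2-like cells and at 143 ± 20.3 in basophil or mast-like cells. Il1rl1, the gene of the sorted receptor, was at 198 ± 31.4 in ILC2-like and 522 ± 58.1 in basophil or mast-like cells.

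Across the cell classes, 5 of the 10 genes were highest in ILC2-like cells in every litter, and these levels are a description of clusters with no test. Gata3 ranged from 402 to 437 CPM over the 4 litters of ILC2-like cells, against 34.0 to 66.7 in mesenchymal-like cells, the next class. Rora ranged from 633 to 713 CPM in ILC2-like and from 100.1 to 176 in mesenchymal-like cells. Bcl11b stood at 63.2 ± 11.3 CPM (SD, n = 4) in ILC2-like cells and at 5.19 ± 3.46 in mesenchymal-like cells. For these 3 core genes the next class therefore lay far below, and its litters did not overlap those of the ILC2-like cells.

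Id2 and Ikzf3 were also highest in ILC2-like cells but were shared with a second class. Id2 was at 329 ± 24.2 CPM in ILC2-like cells, 201 ± 33.7 in an unnamed cluster led by Gzmb and Scin, 198 ± 18.6 in epithelial-like and 170 ± 25.6 in basophil or mast-like cells. The lowest ILC2-like litter, at 308.3 CPM, was above the highest litter of the Gzmb and Scin cluster, at 239. Ikzf3 was at 742 ± 37.2 CPM in ILC2-like cells and 413 ± 46.1 in B-like cells, the only other class above 100 CPM on average, where it is a known regulator of B cell maturation.

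The other 5 genes did not set ILC2-like cells apart. Tcf7 was at 30.5 ± 6.27 CPM in ILC2-like, 29.2 ± 6.94 in endothelial-like and 23.3 ± 11.1 in mesenchymal-like cells, and the litters of these classes overlapped. Ets1 was highest in B-like cells, at 374 ± 32.4 CPM, above endothelial-like cells at 234 ± 21.4 and ILC2-like cells at 218 ± 38.2, which overlapped each other. Gfi1 was at 61.5 ± 23.0 CPM in B-like and 58.1 ± 10.0 in basophil or mast-like cells, which overlapped, and at 30.9 ± 4.37 in ILC2-like cells. Both factors are thus shared with other blood cell types in this sort.

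Maf and Zbtb16 were shared with structural cells. Maf was at 96.2 ± 36.6 CPM in mesenchymal-like and 60.4 ± 12.4 in ILC2-like cells, and Zbtb16 at 59.7 ± 27.8 and 54.2 ± 9.25. For both genes the litters of these classes overlapped. The plot of levels by class shows the ILC2-like column above all others for Gata3, Rora, Bcl11b, Id2 and Ikzf3.

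**Figure D1:**
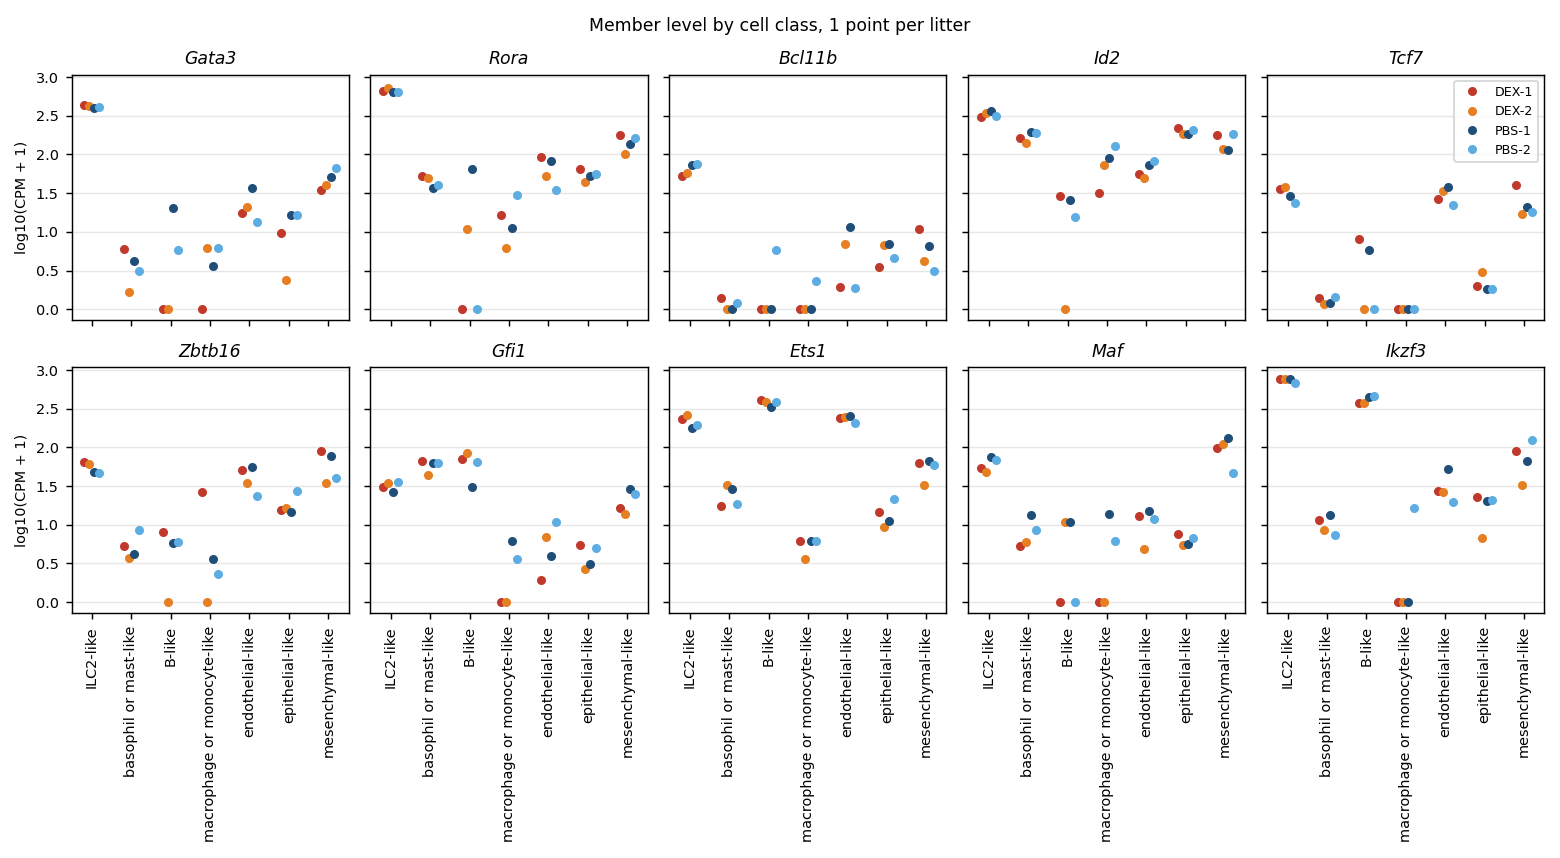
Levels of the 10 transcription factor genes on a log10(CPM + 1) axis in 7 named cell classes, with a point for each of the 4 litters. Gata3 lay between 402 and 437 CPM in ILC2-like cells and at or below 66.7 CPM in mesenchymal-like cells, whereas the points of Tcf7, Zbtb16 and Maf overlapped between ILC2-like and other classes.

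To compare single cells at equal depth, each was thinned to 2000 UMIs. A UMI of Gata3 was then found in 51.8 to 57.4% of ILC2-like cells of a litter, and in 0 to 2.00% of B-like cells, which should lack the gene. The unthinned shares were 87.9 to 90.7% and 0 to 3.77%, at median depths of 6637 to 7873 UMIs in ILC2-like and 3387 to 3800 in B-like cells. Rora was detected in 68.0 to 74.6%, Ikzf3 in 72.2 to 75.3%, Id2 in 39.3 to 48.2% and Ets1 in 28.4 to 41.0% of thinned ILC2-like cells. Tcf7 (3.91 to 5.71%), Gfi1 (5.43 to 6.95%), Zbtb16 (7.52 to 11.2%), Maf (8.97 to 15.4%) and Bcl11b (10.3 to 12.99%) were found in a minority. At this depth an ILC2-like cell held on average 3.09 to 3.36 of the 10 genes, and 12.9 to 18.8% of cells held at least 5. B-like cells held 1.15 to 1.41 on average and basophil or mast-like cells 0.472 to 0.546, and no cell of either class held 5.

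Within ILC2-like cells, 3 clusters differed in these factors. Since the genes of these cells shaped the clusters, although the 10 factors were left out, the levels are a description. A cluster led by Neb and Calca (1073 cells) had the highest Gata3, with a median over litters of 493 CPM, and the highest Rora (804) and Ikzf3 (997). A cluster led by Tcrg-C4 and Cd27 (582 cells) had Gata3 at 351 CPM, Rora at 568 and Ikzf3 at 662. Most of its leading genes (Tcrg-C4, Cd27, Il2rb, Trbc1, Tcrg-C1, Lck and Il12rb1 among the first 10) are known from T cells or other innate lymphoid cells, and Cxcr6 was the only ILC2 marker among them. It was counted as ILC2-like because a mean of 61.3% of its cells held each of the 10 ILC2 markers, against 16.6% for the T cell markers, of which Cd3g was in 81.8% of its cells, Cd3e in 17.2%, Trac in 9.79% and Cd4 in none. For DEX in ILC2-like cells and for mitotic cells, results below are also given without the Tcrg-C4 and Cd27 cluster where that ends a call or turns a direction. The comparisons of Cd7 and Klrg1 states were not run without it. Tcf7 ran the other way, with 6.25 CPM (litters 4.59 to 11.4) in the Neb and Calca cluster and 65.6 (37.9 to 83.9) in the Tcrg-C4 and Cd27 cluster. The cluster led by the cell division genes Hist1h2bj and Nusap1 (393 cells) lay between them for Tcf7, at 30.9 CPM (19.5 to 35.9). Bcl11b ran from 57.9 to 70.8 CPM over the 3 cluster medians, and its litters overlapped between all of them.

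DEX exposure was compared with PBS on UMIs summed over the ILC2-like cells of each litter, scaled with edgeR's TMM factors. In such sums, fewer cells that hold a gene and less RNA of it per cell cannot be told apart. Zbtb16 and Ets1 were higher and Maf and Bcl11b lower in the DEX litters, by 0.42 to 0.48 on the log2 scale in size, while the other 6 genes did not pass the test. The 4 calls among 10 genes compare with 2.31% of all 10636 genes tested, of which 1.08% were higher and 1.23% lower. The median log2 fold change was 0.10 over the 10 genes and 0.0034 over all genes. Gene by gene values follow for the factors that passed.

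Ets1 was at 232 and 268 CPM in the DEX litters and at 177 and 197 in the PBS litters, so the lower DEX litter still exceeded the higher PBS litter. The log2 fold change was 0.42 ± 0.09 (SE), with an adjusted p of 0.0277 by edgeR's quasi-likelihood test with Benjamini-Hochberg adjustment over all genes. Zbtb16 was at 63.5 and 61.0 CPM under DEX and at 46.4 and 45.8 under PBS, so the groups did not overlap. Its log2 fold change was 0.44 ± 0.10 (edgeR adjusted p = 0.0447).

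Maf was at 52.3 and 48.2 CPM in the DEX litters, against 73.1 and 67.6 in the PBS litters. The DEX litters were thus the low ones, with a log2 fold change of -0.48 ± 0.10 (edgeR adjusted p = 0.0279). Bcl11b was at 50.6 and 57.0 CPM under DEX and at 71.4 and 73.6 under PBS. The groups were again separate, and the log2 fold change was -0.44 ± 0.10 (edgeR adjusted p = 0.0422).

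With 2 litters a group these calls were easily lost, and DESeq2 called only Ets1 of the 10. Without DEX-2 or without PBS-1 the fold changes of Ets1 (log2 0.31 and 0.34) and Maf (-0.43 in each) no longer passed. Bcl11b no longer passed without DEX-1 (-0.35), PBS-1 (-0.46) or PBS-2 (-0.42), nor Zbtb16 without DEX-1 (0.41), DEX-2 (0.46), PBS-1 (0.44) or PBS-2 (0.42). Over all 24 alternatives, the call was lost in 16 for Zbtb16, 13 for Bcl11b, 10 for Maf and 9 for Ets1. Zbtb16 also changed sign in 1 alternative. The cluster led by Tcrg-C4 and Cd27 held 34.7 and 28.9% of the ILC2-like cells in the DEX litters and 24.1 and 25.8% in the PBS litters, without overlap. The cluster led by Neb and Calca held 45.9 and 51.2% against 59.1 and 53.9%. Without the Tcrg-C4 and Cd27 cluster only Maf was still called (log2 -0.60), while Ets1 was at 0.47, Zbtb16 at 0.39 and Bcl11b at -0.49. Within the 3 ILC2-like clusters, run separately, the direction held and none passed. Ets1 was at log2 0.55, 0.23 and 0.38, Zbtb16 at 0.40, 0.48 and 0.45, Maf at -0.61, -0.17 and -0.52, and Bcl11b at -0.51, -0.27 and -0.47 in the clusters led by Neb and Calca, Tcrg-C4 and Cd27, and Hist1h2bj and Nusap1. Over all singlets of a litter, whatever their class, Ets1 was at 0.014 and Zbtb16 at -0.010.

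Tcf7 was at 34.1 and 37.2 CPM under DEX, against 28.0 and 22.8 under PBS. The groups did not overlap, but the log2 fold change of 0.50 ± 0.15 did not pass (edgeR adjusted p = 0.136). It passed without PBS-1 (0.64) and when mitotic cells were left out (0.87), and was at -0.046 without the Tcrg-C4 and Cd27 cluster. Gata3 was at 434 and 429 CPM in the DEX litters and at 398 and 406 in the PBS litters, a log2 fold change of 0.10 ± 0.07 (edgeR adjusted p = 0.615). The groups were separate but close.

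Rora was at 662 and 724 CPM in the DEX litters and 626 and 634 in the PBS litters (log2 0.14 ± 0.07, edgeR adjusted p = 0.491). Ikzf3 was at 750 and 784 against 745 and 690 (log2 0.10 ± 0.07, edgeR adjusted p = 0.672). Id2, at 306 and 344 against 355 and 310, and Gfi1, at 29.6 and 34.3 against 25.0 and 35.0, overlapped between the groups (log2 -0.03 ± 0.09 and 0.07 ± 0.17). The groups were separate for 8 of the 10 genes, against 42.5% of all genes tested in these cells. The plot of levels by litter shows that separation for all but Id2 and Gfi1.

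**Figure D2:**
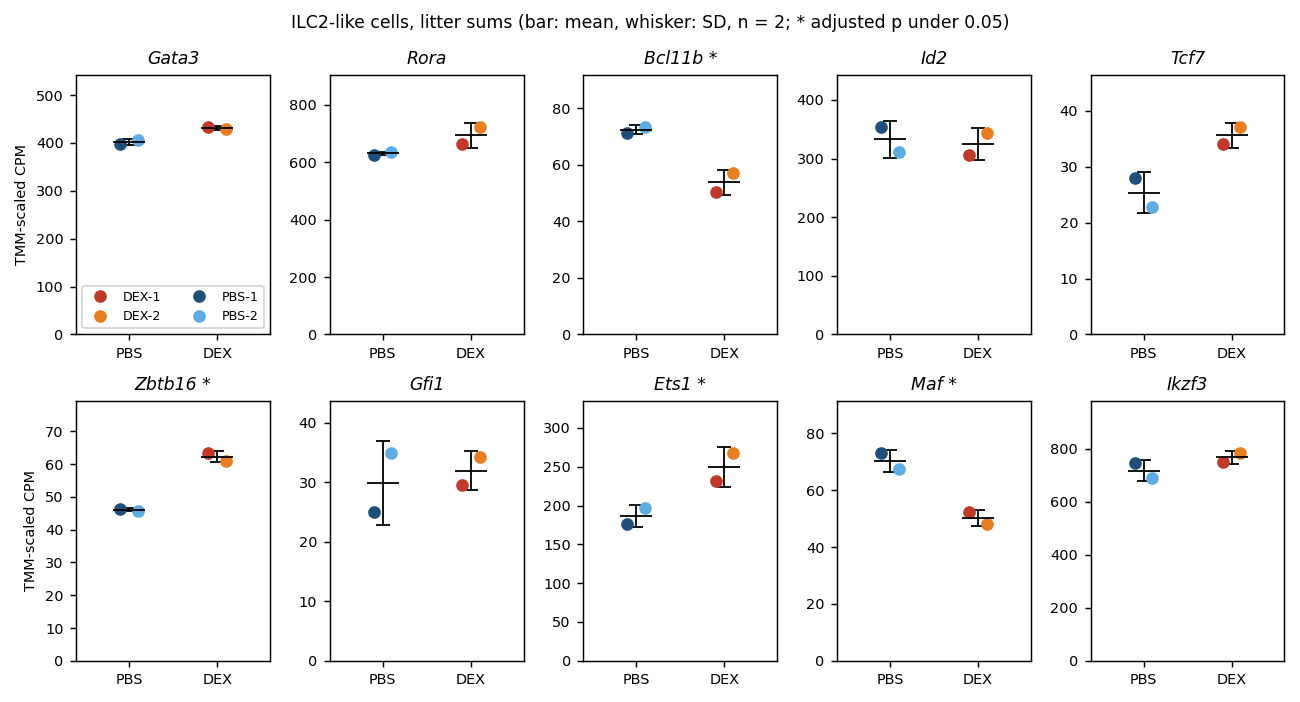
Levels of the 10 genes in ILC2-like cells, in CPM after TMM scaling, with a point for each litter and the mean ± SD of the 2 litters a group. An asterisk marks an adjusted p under 0.05 by edgeR, which Ets1 and Zbtb16 (higher in DEX) and Maf and Bcl11b (lower in DEX) reached.

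Genes of other cell types were also measured in ILC2-like cells. The summed level of 9 NK and ILC1 genes was 200.4 and 81.8 CPM in the DEX litters, against 119 and 48.0 in the PBS litters, and of 6 tested edgeR called 0 and DESeq2 0, while 4 had an unadjusted p under 0.05 (median log2 fold change 1.02). Of all 10636 genes tested, 1311 had an unadjusted p under 0.05 in edgeR. Summed mast cell and basophil genes ranged from 440 to 561 CPM in DEX and 403 to 415 in PBS, with 1 of 8 higher, Tyrobp, an adaptor of activating receptors (log2 1.72 ± 0.25, edgeR adjusted p = 0.00206). Summed T cell genes ranged from 564 to 634 in DEX and 584 to 586 in PBS, with 1 of 7 higher, the costimulatory receptor Cd27 (log2 0.52 ± 0.11, edgeR adjusted p = 0.0204), which was lost without DEX-1 (0.51). Neither Tyrobp (1.74) nor Cd27 (0.52) was called without the Tcrg-C4 and Cd27 cluster. Tyrobp was not among the markers that named basophil or mast-like cells, and its levels by Cd7 state are given below. An unadjusted p under 0.05 in edgeR was reached by 4 of the 8 mast cell and basophil genes (median log2 fold change 0.70). It was reached by 3 of the 7 T cell genes (median 0.51). Besides Tyrobp, the 4 were Tpsab1 (log2 2.27), Gata2 (1.11) and Hdc (0.61), and only Cma1 was lower (-0.09). Largest in the sums were Kit (mean 247 CPM in DEX, 233 in PBS) and Cd3g (430 and 451). Of the defining genes, Cpa3, the mast cell carboxypeptidase, was at 29.05 to 60.7 CPM in the ILC2-like cells of the 4 litters. Fcer1a, a chain of the IgE receptor, was at 0 in 3 litters and at 0.255 CPM in PBS-1. All 4 calls among the factors were kept when cells with UMIs of at least 2 NK and ILC1 genes were left out. The part of the mast cell and T cell genes was not tested. None of the 20 mitosis genes was called by edgeR or DESeq2, with 1 at an unadjusted p under 0.05, and the mitotic share was 21.9 and 21.5% in the DEX litters and 19.2 and 24.4% in the PBS litters.

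Among 47 other transcription factors of innate lymphoid cells and lymphocytes, 44 were tested, 4 were higher and 1 was lower in DEX, with a median log2 fold change of 0.14. Hes1, a target of Notch signalling, fell from 279 ± 25.1 CPM (SD, n = 2) in PBS to 156 ± 7.54 in DEX (log2 -0.84, edgeR adjusted p = 0.000165). Satb1, a chromatin organiser of lymphocytes, rose from 51.0 ± 7.92 to 84.7 ± 3.998 CPM (log2 0.72, edgeR adjusted p = 0.00439). Both were called without any litter in turn. Lmo4, an LIM-domain cofactor, was at 1320 ± 90.2 in DEX and 1055 ± 18.3 in PBS (log2 0.32, edgeR adjusted p = 0.0328).

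Sox4, a progenitor factor, was at 22.8 ± 5.28 in DEX and 12.2 ± 2.75 in PBS (log2 0.91, edgeR adjusted p = 0.0457), and the homeobox gene Hhex at 14.9 ± 3.22 and 5.87 ± 3.11 (log2 1.41, edgeR adjusted p = 0.0295). Without the Tcrg-C4 and Cd27 cluster, Lmo4 (0.26), Sox4 (0.17) and Hhex (1.58) were not called. Lmo4 also lost its call without DEX-1 (0.39) or DEX-2 (0.25). Sox4 lost it without DEX-2 (0.66) or PBS-2 (0.67), and Hhex without DEX-1 (1.16) or PBS-2 (0.89).

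In basophil or mast-like cells of the same litters, 8 of the 10 genes could be tested and none was called, where the percentage called among all 10929 genes was 0. At an unadjusted p under 0.05, 3 of the 8 (Rora, Id2 and Maf) and 428 of all genes passed in edgeR. DESeq2 called 6 genes and none of the 8. Rora was at 51.9 and 48.8 CPM in the DEX litters and 36.1 and 39.6 in the PBS litters (log2 0.41 ± 0.13). Id2 was at 162 and 139 against 190 and 190 (log2 -0.34 ± 0.12), and Maf at 4.40 and 5.02 against 12.2 and 7.52 (log2 -1.06 ± 0.31).

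These 3 were also the genes whose litters did not overlap there, against 30.7% of all genes. Gata3, from 0.692 to 5.03 CPM, and Ikzf3, from 6.45 to 12.2, were near background. Bcl11b and Tcf7, at 0 to 0.431 CPM, were not tested.

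The difference of the DEX effect between the classes was tested directly with litter as a term. It was called for 0.0508% of 11810 genes in edgeR and for none of the 10 factors (adjusted p = 1). Zbtb16, with a difference of log2 1.03 ± 0.42, was the only factor at an unadjusted p under 0.05, where 543 of all genes passed, and DESeq2 called none of the 10. An effect particular to ILC2-like cells was therefore not shown for any of the 10 genes. For Bcl11b and Tcf7 the test could not decide, since basophil or mast-like cells held only 3 and 6 UMIs of them (SE 1.61 and 1.06). Gata3 was also poorly measured there, with 53 UMIs (SE 0.63).

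Dividing ILC2-like cells were compared with the others. A cell was called mitotic when, thinned to 2000 UMIs, it held UMIs of at least 2 of 20 mitosis genes. There were 444 such cells, 92 to 137 a litter, against 1586 others, 61 cells had exactly 2 of the genes and 290 exactly 1. Mitotic cells held 13615 to 14364 UMIs on average and the others 6710 to 7555, and the levels below are scaled to the totals. In mitotic cells 6 of the 10 factors were lower and none was higher, where 34.7% of all 9471 genes were called, 16.9% lower and 17.8% higher. DESeq2 called 2 of the 10, Ikzf3 and Rora. The median log2 fold change was -0.18 over the 10 and -0.035 over all genes.

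Ikzf3 changed most, at 550, 611, 522 and 504 CPM in mitotic cells (first the DEX, then the PBS litters), against 854, 864, 851 and 802 in the others. Every mitotic value lay below every other value, and the log2 fold change was -0.63 ± 0.05 (edgeR adjusted p = 4.80e-11). Rora was at 591, 617, 523 and 541 CPM in mitotic cells against 699, 771, 673 and 682, also without overlap (log2 -0.31 ± 0.05, edgeR adjusted p = 9.07e-06). Both calls held in each alternative that was run, including each litter left out. The values of mitotic and other cells were separate, in either direction, for 28.6% of all genes tested.

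Gata3 was at 380, 389, 393 and 375 CPM in mitotic cells against 463, 444, 398 and 425, and PBS-1 showed almost no difference (log2 -0.17 ± 0.06, edgeR adjusted p = 0.0179). It lost its call without DEX-1 (-0.13), DEX-2 (-0.14) or PBS-2 (-0.17), and was at -0.04 in thinned cells. Id2 was at 301.8 ± 34.3 CPM (SD, n = 4) against 341 ± 25.0 (log2 -0.18 ± 0.06, edgeR adjusted p = 0.0263), and was not called without DEX-1 (-0.14), PBS-1 (-0.14) or PBS-2 (-0.20). Zbtb16 was at 45.1 ± 10.8 against 58.6 ± 10.7 (log2 -0.41 ± 0.12, edgeR adjusted p = 0.00637), and was not called without DEX-1 (-0.35) or PBS-2 (-0.30). These ranges overlapped except for Gata3.

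Ets1 was at 193 ± 41.3 CPM in mitotic cells and 230 ± 40.5 in the others (log2 -0.24 ± 0.07, edgeR adjusted p = 0.00532), a call kept without each litter in turn but not without the Tcrg-C4 and Cd27 cluster (-0.12). Zbtb16 was not called without that cluster either (-0.31). Bcl11b stayed at 67.5 ± 13.2 against 60.5 ± 10.3 (log2 0.15 ± 0.10, edgeR adjusted p = 0.237). Tcf7 (log2 -0.12 ± 0.18), Gfi1 (0.04 ± 0.13) and Maf (-0.15 ± 0.10) did not pass either. Tcf7 went down in the DEX litters, from 41.7 and 39.1 CPM to 19.9 and 32.7, and up in the PBS litters, from 25.1 and 19.6 to 33.7 and 28.2, and this difference between the groups was not tested. Without the Tcrg-C4 and Cd27 cluster, Tcf7 was higher in mitotic cells and was called (log2 1.89, edgeR adjusted p = 1.94e-06). That removal took out 534 cells that were not mitotic but only 44 mitotic ones, and Tcf7 is among the leading genes of the cluster. The call can therefore not be told apart from the change in the cells compared.

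Of the 47 other transcription factors, 42 were tested in this comparison, 4 were higher and 18 lower, with a median of -0.26. The largest changes were those of Hhex, Lef1 and Prdm1. Hhex was at 2.75 ± 1.22 CPM in mitotic cells and 14.4 ± 8.39 in the others (log2 -2.40, edgeR adjusted p = 4.11e-07). Lef1, of the same TCF and LEF family as Tcf7, was at 10.6 ± 2.67 and 20.2 ± 2.50 (log2 -0.91). Prdm1, which encodes the repressor Blimp-1, was at 6.56 ± 1.39 and 12.4 ± 3.26 (log2 -0.90). Prdm1 lost its call without PBS-2 (-0.81). Of the ILC2 receptor and effector list, 20 of 30 were lower and 1 was higher. All 20 mitosis genes were higher, which the gate itself fixed.

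Cd7, a surface glycoprotein of early lymphocytes, marked a small part of the ILC2-like cells that were not mitotic. A cell was taken as Cd7-positive with at least 1 UMI after thinning, which gave 87 cells (28 and 24 in the DEX litters, 22 and 13 in the PBS litters) against 1499, and 57 of the positive cells held exactly 1 UMI. A Cd7 UMI was in 2.85 to 6.28% of all thinned ILC2-like cells of a litter and in 1.76 to 8.62% of basophil or mast-like cells, at median depths of 6637 to 7873 and 6049 to 6869 UMIs, so such a UMI does not by itself show that a cell expresses Cd7. The unthinned shares were 6.32 to 12.8% and 2.65 to 11.9%, and B-like cells held none. Among ILC2-like cells that were not mitotic, the share was 14.8% in the Tcrg-C4 and Cd27 cluster and 0.677% in the Neb and Calca cluster. Of the 86 that held no Klrg1, 79 were in the cluster led by Tcrg-C4 and Cd27. Tcf7 and Ets1 were higher and Gata3 and Ikzf3 lower in Cd7-positive cells. The calls, 2 higher and 2 lower of 10, compare with 4.22% of 8176 genes called, 1.92% higher and 2.30% lower, and DESeq2 called only Tcf7 and Ets1 of the 10.

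Tcf7 was at 186, 89.0, 150 and 58.6 CPM in the Cd7-positive cells, again with the DEX litters first, against 33.6, 36.7, 19.0 and 18.8 in the Cd7-negative cells. Each litter showed the difference, and the lowest positive value lay above the highest negative one. The log2 fold change was 2.18 ± 0.29 (edgeR adjusted p = 9.79e-07), and it passed in each alternative that was run. The values of Cd7-positive and Cd7-negative cells were separate, in either direction, for 11.9% of all genes tested.

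Ets1 was at 360, 363, 389 and 305 CPM against 238, 281, 188 and 200, again without overlap (log2 0.65 ± 0.14, edgeR adjusted p = 0.00302), and lost its call without PBS-1 (0.52). Gata3 was at 301.6, 315, 247 and 375 CPM in Cd7-positive cells against 480, 460, 417 and 431 (log2 -0.56 ± 0.13, edgeR adjusted p = 0.00673). Ikzf3 was at 621, 767, 576 and 610 against 882, 886, 887 and 815 (log2 -0.44 ± 0.10, edgeR adjusted p = 0.00517). For both, all positive values were below all negative ones. Gata3 was not called without DEX-1 (-0.51) or PBS-1 (-0.49), nor Ikzf3 without DEX-1 (-0.41), PBS-1 (-0.37) or PBS-2 (-0.44).

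**Figure D3:**
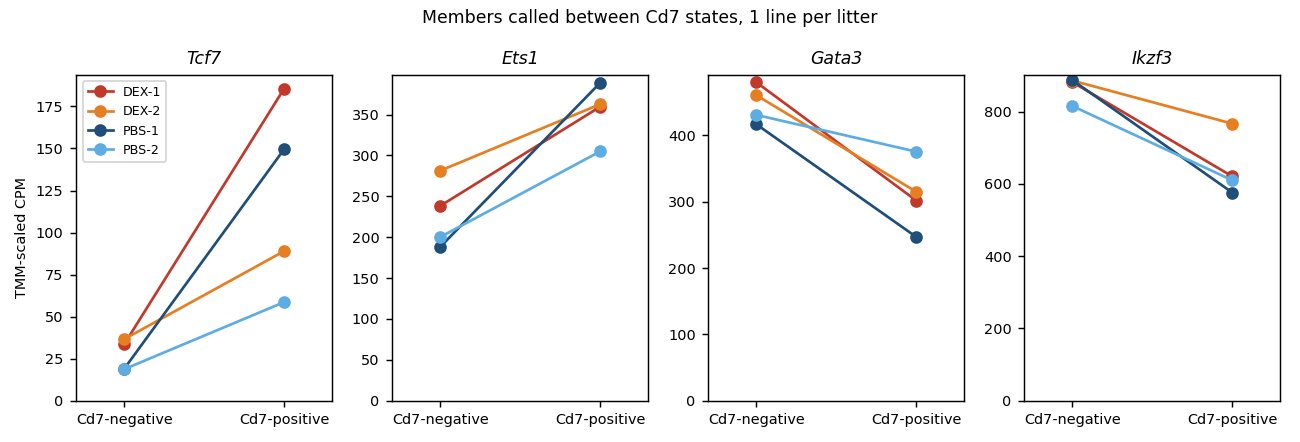
Levels of Tcf7, Ets1, Gata3 and Ikzf3 in Cd7-negative and Cd7-positive ILC2-like cells, in CPM after TMM scaling, with a line for each litter. All 4 lines rose for Tcf7 (to between 58.6 and 186 CPM) and Ets1 and fell for Gata3 and Ikzf3.

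When a cell needed at least 2 Cd7 UMIs and cells with 1 were left out, which left 9 and 4 cells in the DEX litters and 16 and 1 in the PBS litters, Tcf7 was still called (log2 2.42), while Gata3 (-1.22), Ikzf3 (-0.84) and Ets1 (0.57) were not. When only the cluster led by Tcrg-C4 and Cd27 was used, Tcf7 (log2 1.24) and Ets1 (0.53) were still called higher in Cd7-positive cells, while Gata3 was at -0.08 and Ikzf3 at -0.04 and neither passed. Rora, at 603 ± 161 CPM against 722 ± 40.5 (log2 -0.26 ± 0.11, edgeR adjusted p = 0.252), and Bcl11b, at 35.8 ± 21.9 against 62.6 ± 11.5 (log2 -0.71 ± 0.34, edgeR adjusted p = 0.354), were not called. Rora was called lower without a filter on low genes (-0.37) and with gates on all UMIs (-0.28). Id2 (log2 -0.04 ± 0.15), Zbtb16 (0.32 ± 0.26), Gfi1 (-0.36 ± 0.42) and Maf (-0.21 ± 0.29) did not pass either. The median was -0.23 over the 10 and -0.033 over all genes.

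NK genes were present in some of these cells. Their summed level in Cd7-positive cells ran from 13.5 to 2393 CPM between litters, against 29.6 to 76.6 in Cd7-negative cells, mostly through the granzyme gene Gzma, at 1079 CPM against 43.4 over all cells. The defining NK receptor genes Ncr1 and Klrb1c were at 7.47 and 24.3 CPM in Cd7-positive cells and at 0 in Cd7-negative cells. Only 5 Cd7-positive cells (2 in DEX-1 and 3 in PBS-1) held UMIs of at least 2 NK and ILC1 genes. Without all such cells the differences stood at log2 2.11 for Tcf7, 0.72 for Ets1, -0.47 for Gata3 and -0.37 for Ikzf3, and all 4 were called. Summed T cell genes ran from 544 to 865 CPM in Cd7-positive and 580 to 652 in Cd7-negative cells. Summed mast cell and basophil genes ran from 196 to 1165 and 421 to 536. Of 6 mast cell and basophil genes tested, Tyrobp was called higher and Hdc lower in Cd7-positive cells. Over all cells Tyrobp was at 276 CPM against 15.3, and Cpa3 at 48.5 against 50.3. The part of the T cell genes and of the mast cell and basophil genes in the result was not tested.

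Of the other transcription factors 39 were tested, 2 were higher and 1 lower in Cd7-positive cells. Klf2, a factor of lymphocyte circulation, was at 501 ± 221 CPM against 156 ± 78.8 (log2 1.67, edgeR adjusted p = 8.11e-09), and Lmo4 at 2235 ± 353 against 1245 ± 211 (log2 0.84, edgeR adjusted p = 6.26e-09). Nfkb1, a subunit of NF-κB, was at 529 ± 172 against 806 ± 64.9 (log2 -0.63, edgeR adjusted p = 0.000995), and lost its call without PBS-1 (-0.44). With at least 2 Cd7 UMIs, Klf2 (1.56) was called and Lmo4 (0.27) and Nfkb1 (-0.80) were not.

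Klrg1, an inhibitory receptor of mature ILC2s, was found in 35 cells that were not mitotic (10 and 13 in the DEX litters, 4 and 8 in the PBS litters), and 32 of them held exactly 1 UMI of it. A Klrg1 UMI was in 0.835 to 3.59% of all thinned ILC2-like cells and in 0.163 to 0.508% of basophil or mast-like cells. Of the 35 cells, 31 were in the cluster led by Neb and Calca and 4 in that led by Tcrg-C4 and Cd27. The part of the clusters in the Klrg1 differences was not tested. None of the 10 factors was called against the 1551 Klrg1-negative cells, where 1.33% of 8057 genes were. Tcf7 was the only factor at an unadjusted p under 0.05 in edgeR, where 832 of all genes passed, and DESeq2 called 6 genes, none of them among the 10. The median log2 fold change was -0.13 over the 10 factors, against -0.24 over all genes, so changes are read against that shift. Ikzf3, at 999 ± 202 CPM against 929 ± 35.7 (log2 0.13 ± 0.16), and Gata3, at 437 ± 151 against 479 ± 30.6 (log2 -0.14 ± 0.20), varied widely between the litters. These levels are TMM-scaled. Scaled to UMI totals alone, over all cells, Ikzf3 was at 1115 against 844 CPM and Gata3 at 477 against 437. The ratios were 1.32 (95% interval of counting error only, 1.155 to 1.502) and 1.09 (0.888 to 1.33).

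Tcf7 was counted by 1 UMI in Klrg1-positive cells, among 211743, and by 354 UMIs in Klrg1-negative cells. Scaled to UMI totals alone, the level was 4.72 CPM (95% exact Poisson interval 0.120 to 26.3) against 31.9. The ratio was 0.148, with a counting interval of 0.00374 to 0.830, which covers counting error only. The fitted test over litters did not pass (edgeR adjusted p = 0.178). Of the other transcription factors 39 were tested and 2 were lower, Ikzf2, the Ikaros family gene of Helios, at 10.7 ± 12.6 CPM against 71.7 ± 12.6 (log2 -2.50, edgeR adjusted p = 0.0260), and Klf2, at 68.8 ± 72.6 against 191 ± 98.8 (log2 -1.54, edgeR adjusted p = 0.00510). Over all Klrg1-positive cells, 3 UMIs of a gene equal 14.2 CPM, so the Ikzf2 level there is near the counting floor. Ikzf2 lost its call without DEX-1 (-2.07), DEX-2 (-3.26) or PBS-2 (-2.74), and Klf2 without DEX-2 (-0.71).

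Cd7-positive cells were then set against Klrg1-positive cells, leaving out 1 cell with both. Of the 86 Cd7-positive cells, 79 were in the Tcrg-C4 and Cd27 cluster. Of the 34 Klrg1-positive cells, 30 were in the Neb and Calca cluster. A difference between these states can thus not be told apart from a difference between those clusters. Only 1247 genes had enough UMIs to test, of which 5.77% were called, and among them were 5 of the 10 factors with 1 called. Ikzf3 was at 590, 760, 577 and 635 CPM in the Cd7-positive cells, DEX litters first, and at 958, 1145, 951 and 1190 in the Klrg1-positive cells. The groups did not overlap, with a log2 fold change of -0.72 ± 0.15 (edgeR adjusted p = 0.0164), a call lost without DEX-1 (-0.72), DEX-2 (-0.79) or PBS-2 (-0.63). Over all genes tested here, 12.9% did not overlap, in either direction.

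Tcf7, with 70 UMIs against 1, was below the limit for the test, and its ratio was 27.3 (95% counting interval 4.74 to 1092). Gata3 (log2 -0.62 ± 0.26), Ets1 (0.87 ± 0.37), Rora (-0.33 ± 0.17) and Id2 (0.07 ± 0.38) did not pass. Ets1 was called higher without DEX-2 (1.76), without a filter on low genes (1.19) and with gates on all UMIs (0.94), where Gata3 was called lower (-0.62). Of the other transcription factors 11 were tested and 2 were higher in Cd7-positive cells, Klf2 (log2 2.70 ± 0.56, edgeR adjusted p = 0.0177) and Lmo4 (0.76 ± 0.19, edgeR adjusted p = 0.0442). Klf2 lost its call without DEX-2 (1.85), and Lmo4 without DEX-2 (0.81) or PBS-2 (0.54). The plot of the state differences shows Ikzf3 to the left in mitotic and Cd7-positive cells and Tcf7 far to the right in Cd7-positive cells.

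**Figure D4:**
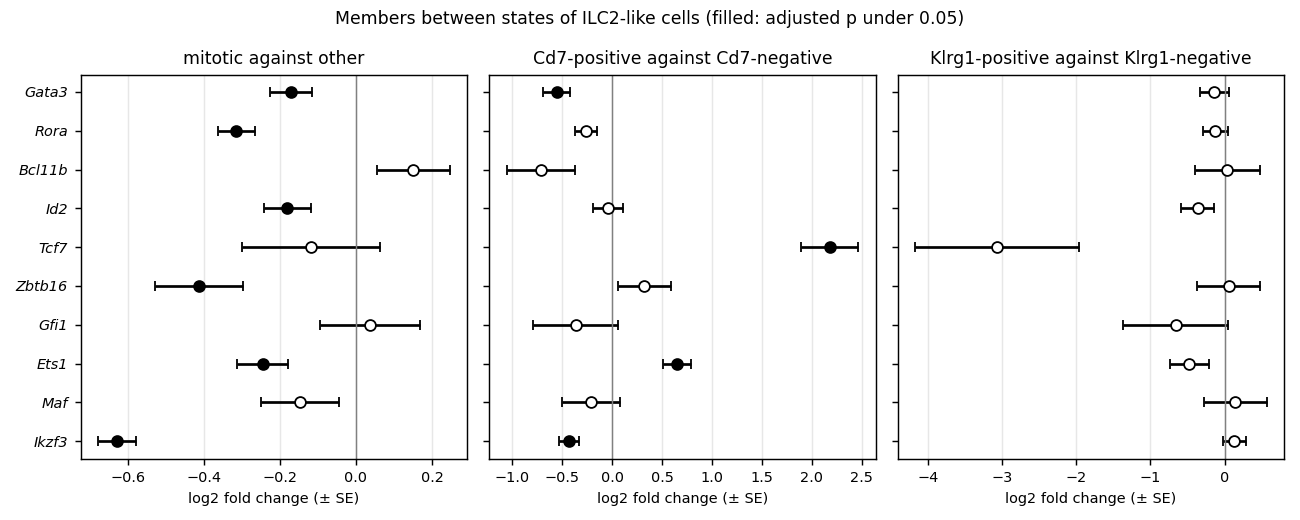
Log2 fold change ± SE of the 10 genes in mitotic against other, Cd7-positive against Cd7-negative and Klrg1-positive against Klrg1-negative ILC2-like cells, on horizontal axes that differ between the 3 panels, with filled points for an adjusted p under 0.05 by edgeR. Filled points are 6 in the mitotic panel, all below 0, 4 in the Cd7 panel and none in the Klrg1 panel.

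Genes whose levels ran most like each factor were taken over 11 points, the named classes and the ILC2 states, by Pearson's r of log2(CPM + 1). These points share cells of the same libraries, and r is a description with no p. The state of cells with both Cd7 and Klrg1 was 1 cell of DEX-1, yet it weighed as much as each other point. That cell held no UMI of Gata3, Id2, Tcf7, Zbtb16 or Gfi1, so the genes named here depend in part on it. Gata3 ran closest to Il2ra (r = 0.989), Zap70 (0.988) and Il17rb (0.988), and Rora to Cd3g (0.993), Tnfrsf18 (0.985) and Coq10b (0.970). Bcl11b ran closest to Gm6213 (0.980) and the arginase gene Arg1 (0.973), and Id2 to Camk2g (0.983), Mpp7 (0.980) and Cish (0.967). Tcf7 had lower values, with Tbxa2r (0.918), Ctsw (0.905) and Camk4 (0.901). Zbtb16 ran closest to Bambi (0.981), Gfi1 to Satb1 (0.963), Ets1 to Zdhhc18 (0.921), Maf to Coq10b (0.917) and Ikzf3 to Cnbp (0.969).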

How the data were processed

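The deposited values were raw UMI counts per gene and barcode, made by the authors with Cell Ranger (version 7, build mm10, per the submitters' processing notes), with the hashtags in the same matrix. Barcodes under 200 genes or above 5% mitochondrial UMIs were left out. Litters were called with HTODemux (Seurat 5.3.0), and 736 barcodes with more than 1 hashtag and 2405 without one were dropped. Doublets within a litter, expected for 3.38% of singlets, were not removed, because scrublet's own threshold marked 1 barcode. Cells were clustered with scanpy 1.11.5 (Leiden, resolution 0.5) without the 10 genes and the transcription factor list, and named from markers of 14 cell types. UMI counts were summed per litter and class or state and tested with edgeR 4.0.16 (TMM, filterByExpr, quasi-likelihood F-test, two-sided, adjusted p under 0.05 over all genes tested), with litter as a term between states, since these come from the same litters. Standard errors are the log2 fold change over the square root of F. The 10 genes and the gene lists were chosen with earlier results of these data known. Named beyond the 10 were all listed genes called for DEX in ILC2-like cells, the 3 listed transcription factors with the largest called change in each state and the 3 genes most like each factor. DESeq2 1.42.0, limma-voom (3.58.1), other filters, scalings, demultiplexing, gates, cell sets and each litter left out were the alternatives.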

Additional observations from a re-analysis of the deposited data

Results flagged for a closer look

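In 2 of the state comparisons of the 10 genes, 1 litter stood apart from the other 3 by a gap that exceeded Dixon's 95% critical value. Chance alone passes that value in about 1 of 20 such groups. The gap was looked for in 10 genes for mitotic, Cd7 and Klrg1 cells each and in 5 for Cd7 against Klrg1. Some of these groups would thus pass by chance alone. The difference of log2(CPM + 1) of Maf between mitotic and other ILC2-like cells was -0.43 in PBS-1 and between -0.05 and -0.04 in the other litters. The difference of Zbtb16 between Klrg1-positive and Klrg1-negative cells was -5.74 in PBS-1, where the 4 Klrg1-positive cells held no Zbtb16 UMI, and between -0.09 and 0.51 in the other litters.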

How the results depend on the processing

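Of 63 tested results on the 10 genes, 19 kept their direction and their side of the threshold in every alternative. Over 778 alternative values, 615 did so, 91 lost the call, 9 gained it and 63 changed sign, and the cause was not tested. Limits: 2 litters a group, states of 4 to 28 cells a litter for Cd7 and Klrg1, rebuilt class names, and 2405 barcodes without a hashtag. The runs without cells holding NK genes, within or without clusters and with at least 2 Cd7 UMIs were chosen after seeing the data.

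The litters' numbers share only a number (correlation of deviations 0.08), and with a replicate block over them 655 genes were called for DEX in ILC2-like cells, Tcf7 among them (log2 0.49), and Gata3 in basophil or mast-like cells was at -0.11. Without the litter block in the state fits, 14 genes were called for Klrg1, and Bcl11b there was at -0.010. With DESeq2 the counts called were 113 for DEX in ILC2-like cells, 6 in basophil or mast-like cells, 1539 for mitotic cells, 154 for Cd7, 6 for Klrg1 and 37 for Cd7 against Klrg1, and for Klrg1 Gata3 was at 0.043 and Rora at 0.059. Without a filter on low genes they were 514, 8 in basophil or mast-like cells, 85 for the class difference, 168 for Klrg1 and 225 for Cd7 against Klrg1, with Bcl11b at -0.074 and Zbtb16 at -0.055 for Klrg1. With library totals, Gata3 was at 0.10 and Rora at 0.12 for Klrg1.

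For DEX in ILC2-like cells, all singlets gave 3 calls, with Zbtb16 at -0.010, Sox4 at -0.0030 and Il4 at 0.010, and equal weight of states gave 0 calls, with Gfi1 at -0.36. Thinned cells gave Id2 at 0.038 and cells with a Gata3 UMI gave Gfi1 at -0.018. The cluster led by Hist1h2bj and Nusap1 gave 59 calls, with Gata3 at -0.034, Tcf7 at -0.40 and Sox4 at -0.028. Without the cluster led by Tcrg-C4 and Cd27 there were 131 calls, with Id2 at 0.076 and Tcf7 at -0.046, and in mitotic cells Tcf7 was then at 1.89 and Gfi1 at -0.23. The cluster led by Neb and Calca gave 93, with Id2 at 0.21 and Il18r1 at -0.13. The cluster led by Tcrg-C4 and Cd27 gave 20, with Gfi1 at -0.16, and 228 for Cd7, with Rora at 0.14, Id2 at 0.071 and Gfi1 at 0.032.

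Cd7-positive cells with at least 2 UMIs gave 96 calls, with Zbtb16 at -0.46. With gates on all UMIs, Tcf7 was at 0.18 and Gfi1 at -0.27 in mitotic cells, Id2 at 0.11 and Maf at 0.15 for Cd7, and for Klrg1 33 genes were called, with Gata3 at 0.089, Rora at 0.021 and Zbtb16 at -0.22. Cd7 against Klrg1 then gave 232 calls. With levels from thinned cells, 1318 genes were called for mitotic cells, with Maf at 0.24, 139 for Cd7, with Zbtb16 at -0.25, 44 for Klrg1, with Bcl11b at -0.84, Maf at -0.36 and Ikzf3 at -0.065, and 15 for Cd7 against Klrg1.

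Leaving out each litter in turn gave 244 to 415 calls for DEX in ILC2-like cells, with Id2 from -0.13 to 0.063 and Gfi1 from -0.14 to 0.34. In basophil or mast-like cells it gave 0 to 63, with Gata3 from -1.91 to 0.91, Gfi1 from -0.49 to 0.12, Ets1 from -0.46 to 0.50, Ikzf3 from -0.45 to 0.47 and Zbtb16 from -1.09 to 0.16. For the class difference it gave 1 to 13, with Bcl11b from -3.47 to 2.02, Gata3 from -0.80 to 1.99, Gfi1 from -0.14 to 0.67, Ikzf3 from -0.31 to 0.49, Ets1 from -0.074 to 0.77 and Tcf7 from -0.043 to 1.34. In mitotic cells Tcf7 ran from -0.33 to 0.21. For Cd7 it gave 188 to 289 calls, with Id2 from -0.27 to 0.12, for Klrg1 26 to 113, with Zbtb16 from -0.22 to 0.21 and Bcl11b from -0.21 to 0.17, and for Cd7 against Klrg1 18 to 83, with Id2 from -0.38 to 0.43.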

Other observations

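Receptors and effectors that ILC2s use were followed beside the factors. In ILC2-like cells, 2 of 30 tested were higher and 3 lower under DEX, where 1.08% of all genes were higher and 1.23% lower, with a median log2 fold change of -0.08 against 0.0034 over all genes. Ramp1, a subunit of the CGRP receptor, was at 34.4 ± 0.158 CPM (SD, n = 2) in DEX and 65.4 ± 4.83 in PBS (log2 -0.92, edgeR adjusted p = 0.000648). Il4, the type 2 cytokine gene, was at 84.5 ± 7.75 and 126 ± 7.13 (log2 -0.56, edgeR adjusted p = 0.00628), and Il2ra, a chain of the IL-2 receptor, at 255 ± 10.5 and 340 ± 19.7 (log2 -0.42, edgeR adjusted p = 0.00992). Dgat1, an enzyme of triglyceride synthesis, was at 235 ± 42.4 and 118 ± 22.0 (log2 1.00, edgeR adjusted p = 0.000936), and Il18r1, the IL-18 receptor, at 52.3 ± 3.54 and 35.2 ± 1.95 (log2 0.58, edgeR adjusted p = 0.0221). Il2ra lost its call without DEX-1 (-0.37), and Il18r1 without DEX-1 (0.51) or PBS-2 (0.51). Without the Tcrg-C4 and Cd27 cluster, Il2ra (-0.35) and Il18r1 (0.23) were not called.

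In Cd7-positive cells, 10 of 29 tested genes of the list were lower and 3 higher, where 2.30% of all genes were lower and 1.92% higher, and the median was -0.69 against -0.033 over all genes. In Klrg1-positive cells, where 1.33% of all genes were called, 3 of 29 were higher, among them Klrg1 itself, which the gate used, and 2 lower, with a median of -0.24, the same as over all genes.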
